A study of Mus musculus with 93 samples.

Results

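Keratin and cell junction genes of simple epithelia were followed through the 4 sorted populations of the series. They are the keratin genes Krt7, Krt8, Krt18 and Krt19 and the junction genes Cdh1, Epcam, Cldn3, Cldn4, Cldn6 and Cldn7. These 10 were taken by name from the 24514 genes in the count table. They were listed because their levels in these same libraries were known to differ between populations, so their differences between populations are given below as a description. Where the number of members past the threshold used for other genes is printed, it stands beside the share of all genes past it, and nothing is read from it.

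The libraries were made from mice carrying Hcn4-GFP, Tbx1-Cre and the Ai9 reporter and from 1 line of embryonic stem cells (ESCs) derived from such mice. GFP reports current activity of Hcn4, a pacemaker channel gene that marks the first heart field (FHF), whereas Tbx1-Cre switches on RFP permanently in every cell that has expressed Tbx1 and in its progeny, which include the second heart field (SHF) but also other descendants of Tbx1-expressing cells. In vivo, GFP+ cells (5 libraries) and RFP+ cells (4 libraries) came from embryos given as E8.5 in the sample titles and as E7.75 in the protocol. In vitro, GFP+ cells (37 libraries of 38 wells) and RFP+ cells (39 libraries of 46 wells) came from precardiac spheroids of the ESC line at day 5.5, after induction with Activin A and Bmp4. All 4 groups carried the same alleles, and there was no group without the reporters. Each well held 10 sorted cells, and the labels did not tie wells to embryos or to separate differentiations, so errors and p-values measure only the spread between wells.

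Simple epithelia are single sheets of cells. Krt8 and Krt7 encode type II keratins and Krt18 and Krt19 encode type I keratins, and a keratin filament needs a partner of each type. Krt8 and Krt18 form the pair that appears first in the mouse embryo. Cdh1 encodes E-cadherin, the adhesion molecule of epithelial adherens junctions, Epcam encodes a surface glycoprotein of epithelial cells, and claudins are the membrane proteins of tight junctions, which seal the space between neighbouring cells. Loss of Cdh1 in exchange for Cdh2 (N-cadherin) is a known accompaniment of the passage of mesoderm out of the epiblast, while early cardiomyocytes again form a Cdh2-bearing epithelium.

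Between the embryonic GFP+ libraries and all others the number of genes with reads differed widely. The counted reads per library ranged from 712732 to 2525460 in embryonic GFP+ cells, with 6189 to 8302 genes detected, and from 1246546 to 1479957 in embryonic RFP+ cells, with 10263 to 13052 genes detected. The spheroid libraries held 828193 to 4371849 reads in GFP+ cells and 540597 to 7422768 in RFP+ cells, and detected 11434 to 14671 genes. Hcn4 averaged 14.1 counts per 1000000 counted reads (CPM) in embryonic GFP+ cells, 0.338 in embryonic RFP+ cells, 7.54 in spheroid GFP+ cells and 0.411 in spheroid RFP+ cells, and Tbx1 averaged 0, 3.79, 0.0312 and 2.37 in the same order. Fewer cells of a type and less RNA per cell cannot be told apart in these pools.

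The members lie on 5 chromosomes, and all are protein-coding genes in the mm10 annotation. Krt7 (chr15:101411043-101430313, plus strand), Krt8 (chr15:101996698-102004482, minus strand) and Krt18 (chr15:102028180-102032027, plus strand) share a chromosome, with the starts of Krt8 and Krt18 23698 bases apart. Cldn4 (chr5:134945119-134946934, minus strand) and Cldn3 (chr5:134986214-134987472, plus strand) are also neighbours, with starts 39280 bases apart. Krt19 (chr11:100140810-100148665, minus strand), Cldn7 (chr11:69964779-69967885, plus strand), Cdh1 (chr8:106603351-106670246, plus strand), Epcam (chr17:87635979-87651129, plus strand) and Cldn6 (chr17:23679249-23682446, plus strand) have no other member nearby. Krt7, Krt8 and Cldn3 each overlap a non-coding gene on the opposite strand (Gm671, Gm36026 and Wbscr25), and Krt8 has an annotated pseudogene, Krt8-ps. The strand setting of the counting is not given in the sources used here, so the counts of these 3 genes are uncertain to that extent.

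Because several members moved together between wells, their promoter letters were compared. RefSeq windows from 250 bases before to 50 bases after the transcript start (GRCm38.p6) were matched for 8 of the 10 members, Krt19 and Cdh1 being the others, and gave 9 windows because Cldn7 has a pair of starts. The E-box CACCTG, read by the Snail, Slug and Zeb repressors, or its reverse complement CAGGTG occurred in 8 of the 9 windows, at least 1 for each of the 8 members, and in 20.2% of all 32851 windows. With only the window nearest the annotated gene start it occurred for 7 of 8 members, the Cldn7 matches lying in its other window. The Krt7 window lay 1360 bases from that start. These nearest windows held 52.0% (Cldn7) to 66.3% GC (Krt7), and the median of all windows was 52.7%. ACCGGT, the core letters read by grainyhead-like factors, occurred in 1 of 9, that of Epcam, and in 2.33% of all windows. The other motifs searched, on both strands, were GGGCGG (6 of 9 windows, 35.7% of all windows), TATAAA (1 of 9, 13.6%), CCAAT (0 of 9, 37.4%) and TGANTCA (1 of 9, 7.81%). Both E-boxes and ACCGGT are shown in capitals in the 5 windows below, which are those of the co-varying genes Krt8, Krt18 and Cldn4 and of the 2 junction genes of highest level in embryonic RFP+ cells, Cldn6 and Epcam. A match is a run of letters and was not tested as a binding site.
Krt8 (chr15:102004293-102004592, minus strand): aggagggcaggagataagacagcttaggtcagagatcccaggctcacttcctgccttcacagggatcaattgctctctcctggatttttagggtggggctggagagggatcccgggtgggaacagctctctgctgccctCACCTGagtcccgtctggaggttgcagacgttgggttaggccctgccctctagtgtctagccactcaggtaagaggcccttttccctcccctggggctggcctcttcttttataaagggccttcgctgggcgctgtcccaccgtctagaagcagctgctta
Krt18 (chr15:102027966-102028265, plus strand): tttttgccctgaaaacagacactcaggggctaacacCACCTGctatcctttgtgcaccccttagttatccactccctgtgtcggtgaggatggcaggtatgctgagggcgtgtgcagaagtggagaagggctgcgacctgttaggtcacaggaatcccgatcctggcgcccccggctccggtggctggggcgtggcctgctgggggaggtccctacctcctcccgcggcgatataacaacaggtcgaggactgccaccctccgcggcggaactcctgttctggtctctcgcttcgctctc
Cldn4 (chr5:134946885-134947184, minus strand): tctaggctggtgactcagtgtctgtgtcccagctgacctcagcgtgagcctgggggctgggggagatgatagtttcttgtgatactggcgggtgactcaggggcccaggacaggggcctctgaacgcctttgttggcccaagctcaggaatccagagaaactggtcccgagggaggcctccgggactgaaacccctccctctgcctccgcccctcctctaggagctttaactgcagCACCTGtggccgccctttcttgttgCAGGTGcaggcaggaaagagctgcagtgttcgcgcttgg
Cldn6 (chr17:23679115-23679414, plus strand): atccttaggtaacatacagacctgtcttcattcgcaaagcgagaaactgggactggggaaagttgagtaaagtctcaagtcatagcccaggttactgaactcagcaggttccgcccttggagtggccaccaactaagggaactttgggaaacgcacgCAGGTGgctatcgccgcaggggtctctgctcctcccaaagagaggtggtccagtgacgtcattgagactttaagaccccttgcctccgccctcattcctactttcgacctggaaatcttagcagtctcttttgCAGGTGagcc
Epcam (chr17:87635729-87636028, plus strand): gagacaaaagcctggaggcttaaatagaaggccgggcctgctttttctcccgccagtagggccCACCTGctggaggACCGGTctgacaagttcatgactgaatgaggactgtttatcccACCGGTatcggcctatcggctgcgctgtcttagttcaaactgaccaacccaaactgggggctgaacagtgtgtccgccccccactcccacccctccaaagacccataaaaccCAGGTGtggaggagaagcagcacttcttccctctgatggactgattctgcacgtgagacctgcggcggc
The Epcam window held CACCTG 187 bases and CAGGTG 19 bases before the start, with ACCGGT at 174 and 131 bases before it. In Cldn4 the matches stood 14 bases before and 11 bases after the start. Cldn6 carried CAGGTG 93 bases before and 40 bases after the start, and Krt8 and Krt18 each carried a single CACCTG, 111 and 214 bases before it.

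In vivo, the 6 junction genes and Krt7 had no read in any GFP+ library, whereas Krt8 and Krt18 were present in all of them. Cldn6 was the most abundant junction gene of RFP+ cells, with 466, 208, 315 and 6.08 CPM in wells F12, G11, G12 and H11. Epcam measured 173, 62.1, 18.5 and 0.676 CPM in the same 4 wells. Cldn4 measured 114, 28.7, 26.5 and 2.70 CPM, and Cdh1 measured 28.5, 15.7, 90.7 and 2.70 CPM. For these 4 genes 3 of the 4 RFP+ libraries stood well above the GFP+ libraries and H11 stood just above them, with 9 reads for Cldn6, 4 each for Cldn4 and Cdh1 and 1 for Epcam.

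Cldn7 measured 43, 19.8, 4.01 and 0 CPM, and Cldn3 measured 10.9, 22.5, 4.01 and 0.676 CPM. Krt7, a keratin of ducts and other simple epithelia, measured 29.9, 19.1, 57.0 and 0 CPM. Against the mean floor of the GFP+ libraries, 3 counts per library or 2.61 CPM, the RFP+ mean was at least 95.3-fold higher for Cldn6, 24.3-fold for Epcam, 16.4-fold for Cldn4, 13.2-fold for Cdh1, 10.1-fold for Krt7, 6.40-fold for Cldn7 and 3.65-fold for Cldn3. Without well F12 the Epcam bound was 10.4-fold, that of Cldn4 7.38-fold and that of Cldn7 3.04-fold, and without G12 those of Cdh1 and Krt7 were 5.98-fold and 6.26-fold. Without G11 the Cldn3 bound was 1.99-fold.

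The keratin pair gave another picture. Krt8 measured 282, 278, 309, 211 and 155 CPM in the 5 GFP+ wells (A12 to E12) and 138, 109.9, 54.6 and 73.7 CPM in the RFP+ wells, so that every GFP+ library lay above every RFP+ one. The mean was 2.63-fold higher in GFP+ cells, with a log2 fold change, RFP+ over GFP+, of -1.41 ± 0.43 (SE). Krt18 measured 182, 49.9, 16.8, 175 and 182 CPM in GFP+ wells and 329, 169, 170.1 and 153 CPM in RFP+ wells. These ranges overlapped, and the log2 fold change of Krt18 was 0.73 ± 0.64. Krt19, a type I keratin, measured 2.04, 63.4, 50.5, 0 and 48.1 CPM in GFP+ wells and 12.4, 1.37, 0 and 3.38 CPM in RFP+ wells, with overlap.

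**Figure D1:**
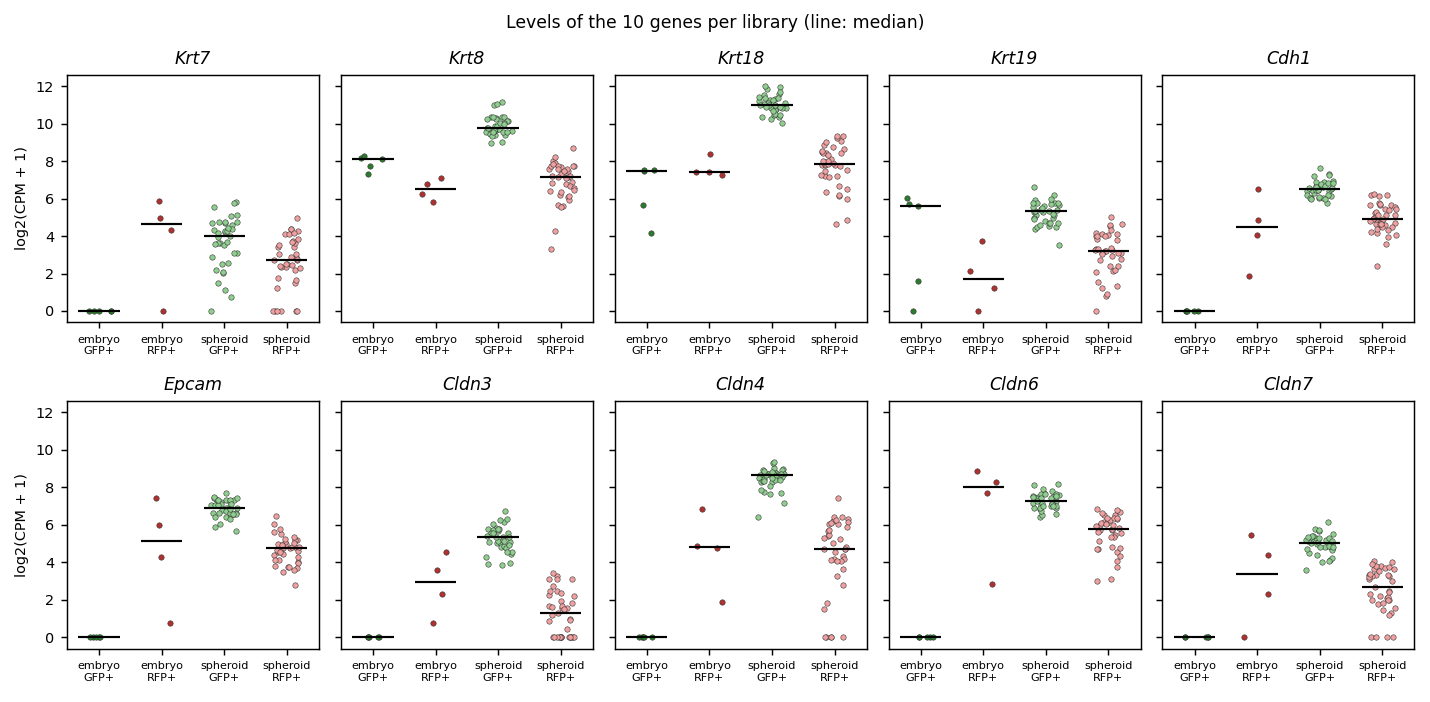
Level of each of the 10 genes in every library, as log2(CPM + 1), in the 4 populations. Each point is 1 library and the bars mark group medians. In embryonic GFP+ cells 7 of the genes sit at 0 in all 5 libraries, and in spheroids the GFP+ points of Krt8, Krt18 and Cldn3 do not overlap the RFP+ points.

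Of the 10 members, 3 passed the filter on low counts in the embryo and 1, Krt8, passed an adjusted p of 0.1 in edgeR. That threshold was passed by 10.1% of the 8503 genes tested, with RFP+ cells on top for 6.21% and GFP+ cells on top for 3.88%. Libraries did not overlap for 6 members, of which 5 were higher in RFP+ cells and Krt8 was higher in GFP+ cells. Of the tested genes 13.6% did not overlap with RFP+ cells on top and 3.73% with GFP+ cells on top. The 5 members higher in RFP+ cells are not among the tested genes, so the 13.6% is no share of genes like them. A share over the genes left out by the filter is not given here. The members at 0 were left out by the filter, which asks for enough reads in at least 4 of the 9 libraries, and the members were chosen on these counts, so nothing is read from these numbers. Among 7735 genes whose mean in embryonic RFP+ cells lay between the levels of Cldn3 and Cldn6 (9.54 to 249 CPM), 382 (4.94%) had no read in any embryonic GFP+ library. Of the 807 genes at or above the level of Cldn6, Cldn6 was the 1 without a read in those libraries.

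The RFP+ well H11 stood apart from the other 3. Summed over the 6 junction genes it held 12.8 CPM, against 835, 357 and 459 CPM in F12, G11 and G12. Its Krt8 and Krt18 levels were close to those of the other wells. In the same well the 10 surface ectoderm markers summed to 9.46 CPM, against 40.3 to 54.6 CPM in the other 3 and the 15 mesenchymal genes summed to 2034 CPM against 1197 to 1545. Of the surface ectoderm list 8 of 10 genes had reads in embryonic RFP+ cells, with Krt14 and Grhl3 at 0, and only Gata3 had reads in embryonic GFP+ cells, at up to 0.396 CPM. The gut endoderm list summed to 158 to 214 CPM in the 4 RFP+ wells, led by Pyy, with Foxa3, Cer1, Nkx2-1, Shh, Gsc and Onecut1 at 0, and to 0 to 213 CPM in GFP+ wells. Cardiomyocyte markers summed to 21429 to 50402 CPM in GFP+ and 1182 to 2342 CPM in RFP+ wells. The part of these other cell types in the levels of the members was not tested.

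In spheroids all 10 genes were detected in both populations and all 10 were higher in GFP+ cells, the direction opposite to that of the junction genes in vivo. Krt18 was the member of highest level. It ranged from 1066 to 4153 CPM in GFP+ libraries (median 2055) and from 24.2 to 652 CPM in RFP+ libraries (median 231), so the populations did not overlap. Its mean was 2196 ± 739 (SD, n = 37) against 267 ± 168 (n = 39), 8.23-fold higher, and it ranked 16th among all genes by mean level in GFP+ cells. Krt8 ranged from 499.6 to 2267 CPM (median 877) in GFP+ and from 8.87 to 421 CPM (median 141) in RFP+ libraries, with means of 1011 ± 413 and 145 ± 83.2 CPM, 6.97-fold apart and also without overlap.

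Among the claudins, which differ in how tightly and for which ions they seal a sheet, the gap was widest for Cldn3. It ranged from 13.3 to 104 CPM in GFP+ libraries (median 39.4) and from 0 to 9.65 CPM in RFP+ libraries (median 1.44), where 14 of 39 had no read. The populations did not overlap, and the means, 41.5 ± 19.8 and 2.33 ± 2.80 CPM, were 17.8-fold apart. Cldn4 ranged from 86.0 to 664 CPM (median 399) in GFP+ and from 0 to 170.4 CPM (median 25.7) in RFP+ libraries, with 35 of 37 GFP+ libraries above the highest RFP+ one and means 10.2-fold apart. Cldn7 was 4.98-fold higher (32.5 ± 11.9 against 6.52 ± 4.75 CPM) and Cldn6 2.90-fold higher (161 ± 48.0 against 55.7 ± 29.2 CPM), with 34 and 32 of 37 GFP+ libraries above the highest RFP+ one.

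The remaining 4 members overlapped more. Epcam averaged 122 ± 37.1 CPM in GFP+ and 27.7 ± 16.1 CPM in RFP+ libraries, 4.40-fold apart. Krt19 averaged 39.9 ± 16.8 and 9.99 ± 7.40 CPM, 3.99-fold apart, and Cdh1 94.7 ± 30.3 and 34.3 ± 17.5 CPM, 2.76-fold apart. Krt7 had the smallest ratio, 2.21-fold (17.1 ± 13.9 and 7.73 ± 6.92 CPM), with 5 of 37 GFP+ libraries above the highest RFP+ one. On the log2 scale of the edgeR fit, RFP+ over GFP+, the members ranged from -4.20 ± 0.27 (Cldn3) and -3.29 ± 0.22 (Cldn4) to -1.45 ± 0.13 (Cdh1) and -1.11 ± 0.30 (Krt7). All 10 lay past an adjusted p of 0.1, as did 77% of the 9933 genes tested, from which nothing is read for the members, GFP+ cells being on top for 39.1% and RFP+ cells for 38%. Non-overlap with GFP+ on top was seen for 3 members and for 2.14% of tested genes, and the reverse for no member and for 1.43%.

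On the plate RFP+ wells lay in columns 1 to 6 and GFP+ wells in 7 to 11, which means that position and population cannot be told apart. Within populations the column medians held the same order. For 9 members every GFP+ column median was above every RFP+ column median, for example 755 CPM in the lowest GFP+ column against 215 CPM in the highest RFP+ column for Krt8, and 334 against 58.7 CPM for Cldn4. Krt7 was the exception, with 4.94 CPM in the lowest GFP+ column against 29.7 CPM in the highest RFP+ column. The latter column held a single library of its own, and the 215 CPM of Krt8 came from it too. The Krt7 exception did not rest on that library. The 7 RFP+ libraries summed from columns 3 and 4 had a Krt7 median of 16.8 CPM. This lay above the medians of GFP+ columns 8 to 11 and just below that of column 7 (17.1 CPM). Krt7 rose with the log10 number of counted reads across RFP+ wells by rank (rho = 0.486, adjusted permutation p = 0.0701) but not by Pearson's r (r = 0.392, adjusted permutation p = 0.143), and no other member was called with it in either population.

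Divided by transcript length, Krt18 and Krt8 came first in both spheroid populations. In GFP+ spheroid cells the order ran from Krt18 (1528 ± 514 CPM per kb) over Krt8 (516 ± 211), Cldn4 (208 ± 66.7), Cldn6 (99.5 ± 29.6) and Epcam (59.8 ± 18.2) to Krt7 (4.18 ± 3.4). Cldn3, Krt19, Cldn7 and Cdh1, at 33 to 21.4 CPM per kb, had overlapping spreads. In RFP+ spheroid cells Krt18 (186 ± 117 CPM per kb) and Krt8 (74.1 ± 42.5) again led, followed by Cldn6 (34.3 ± 18) ahead of Cldn4 (20.4 ± 19.2), whose spreads overlapped. Cldn3 stood 6th in GFP+ and last in RFP+ cells (1.85 ± 2.22 CPM per kb), and Cdh1 9th in GFP+ and 6th in RFP+ cells. In embryonic RFP+ cells Cldn6 (153 ± 119 CPM per kb) and Krt18 (143 ± 57.6) could not be ordered beyond their spread. Krt8 (48.0 ± 19.0) and Epcam (31.1 ± 37.9) came next.

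Keratin output was concentrated on the pair. The table held 55 keratin genes, and Krt8 and Krt18 together took 80.3%, 83.2%, 96.2% and 88.3% of all keratin CPM in embryonic GFP+, embryonic RFP+, spheroid GFP+ and spheroid RFP+ cells. The log2 ratio of Krt18 to Krt8 per length was 1.58 ± 0.24 (SD) in GFP+ and 1.27 ± 0.42 in RFP+ spheroid cells and 1.59 ± 0.42 in embryonic RFP+ cells, and it was above 0 in all of these libraries. In embryonic GFP+ cells it was -1.02 ± 1.83, above 0 in 2 of 5 libraries, with well C12 lowest at -3.74. Of the keratins that are no member, 2 passed the filter on low counts in spheroids. Krt15, a type I keratin of basal layers, was higher in GFP+ cells (13.9 against 3.74 CPM, log2 fold change -1.84 ± 0.31, adjusted p = 1.29e-07 in edgeR), and Krt10 did not differ past the threshold (0.06 ± 0.10, adjusted p = 0.607).

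Compared with the embryonic population of the same reporter, GFP+ spheroid cells held far more of these transcripts. Against the floor of the embryonic GFP+ libraries the spheroid mean was at least 145-fold higher for Cldn4, 61.8-fold for Cldn6, 46.7-fold for Epcam, 36.2-fold for Cdh1, 15.9-fold for Cldn3, 12.4-fold for Cldn7 and 6.55-fold for Krt7. Krt18 was 18.1-fold and Krt8 4.09-fold higher, and every spheroid library lay above every embryonic one for both. Krt19 was nearly level, at 1.22-fold with a log2 fold change of 0.40 ± 0.45. Of the 10 members 9 lay past the threshold with spheroids on top and 8 did not overlap, from which nothing is read. Of the 11953 genes tested 68.4% lay past it, 48.1% with spheroids and 20.2% with embryos on top, and 13.2% and 2.74% did not overlap. The median of all tested genes was shifted by 0.65 on the log2 scale towards spheroids, which is larger than the change of Krt19.

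In RFP+ cells the junction genes were lower in spheroids or close to their embryonic level. Cldn6 was 4.47-fold lower in spheroid than in embryonic RFP+ cells (log2 fold change, spheroid over embryo, -2.18 ± 0.35), Cldn3 4.09-fold lower (-2.07 ± 0.77), Krt7 3.43-fold lower (-1.77 ± 0.60), Cldn7 2.56-fold lower (-1.35 ± 0.58) and Epcam 2.29-fold lower (-1.19 ± 0.40). Cdh1 (34.3 against 34.4 CPM) and Cldn4 (37.1 against 42.9) were nearly level in spheroids and embryos. Krt18 averaged 267 CPM in spheroids against 205 in embryos, Krt8 145 against 94.0 and Krt19 9.99 against 4.29, with log2 fold changes of 0.35 ± 0.45, 0.59 ± 0.42 and 1.17 ± 0.70. The threshold was passed by 5 members with embryos on top, and by 3 without embryonic well G11, from which nothing is read. Of the 11062 genes tested 42.1% passed it, 19.8% with embryos and 22.3% with spheroids on top. With 1 embryonic library left out, 4015 to 4357 genes passed it, of 11323 to 11327 tested. The ranges overlapped for all 10 members, whereas 2.36% (embryos on top) and 2.64% (spheroids on top) of tested genes did not overlap. Well H11 lay within the spheroid range or below it for the junction genes. The Epcam difference rested on F12, without which it was 0.00304 on the log2 scale.

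Counted per library, the members gave a graded picture. More than 3 reads were found for 2 to 3 of the 10 members in embryonic GFP+ libraries, 6 to 10 in embryonic RFP+ libraries and 5 to 10 in spheroid RFP+ libraries, of which 14 of 39 had all 10. Spheroid GFP+ libraries had 9 to 10, with all 10 in 33 of 37. The well of 6288 reads that was left out, a spheroid GFP+ well, held 8 reads of Krt8, 4 of Krt18, 2 each of Epcam and Cldn6 and 1 of Cldn3.

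The other genes of epithelial junctions and epithelial identity were drawn up as lists of 80 genes in all and tested across the whole table. The lists were made with earlier results of these libraries known, so their counts are not independent evidence of a direction. In spheroids the filter kept 53 of them. At an adjusted p under 0.1 GFP+ cells had the higher level for 43 (81.1%, against 39.1% of all genes tested) and RFP+ cells for 9 (17%, against 38%). The same shares of all genes hold for the single lists in spheroids that follow. The median log2 fold change of the 53 was -1.80, and that of all 9933 tested genes was -0.004. Among 13 tight junction genes 11 were higher in GFP+ cells, led by Ocln, the membrane protein occludin (26.7 against 4.6 CPM, -2.47 ± 0.24), Crb3, a protein of the apical membrane (-2.32 ± 0.19), and Patj, a scaffold of the Crumbs complex (-1.96 ± 0.15). Cldn12, a widely expressed claudin, was the 1 higher in RFP+ cells (0.52 ± 0.14). The adjusted p in edgeR was at most 0.00069 for these 4 genes.

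All 7 desmosome genes tested in spheroids were higher in GFP+ cells. Ppl, which links desmosomes to keratin filaments, fell by 3.88 on the log2 scale from GFP+ to RFP+ cells, Perp, a desmosomal membrane protein, by 3.4 (534 against 50.8 CPM, without overlap), and Pkp3, a plaque protein, by 3.10. The adherens junction list was split, GFP+ cells being higher for 8 of 13 and RFP+ cells for 5. Nectin4 (-3.64 ± 0.37), Jup, which encodes plakoglobin (-2.90 ± 0.14), and Plekha7 (-1.80 ± 0.21) led the genes higher in GFP+ cells. Cdh2 (22.4 against 53.1 CPM, 1.23 ± 0.10), Nectin1 (0.56 ± 0.16) and Pkp4 (0.48 ± 0.10) led those higher in RFP+ cells, each with an adjusted p of at most 0.00105 in edgeR.

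Of 20 epithelial regulators and surface proteins tested in spheroids 17 were higher in GFP+ cells. Among them were Lad1 (-3.06 ± 0.22), the membrane protease St14 (58.2 against 7.11 CPM, -3.01 ± 0.18) and the transcription factor Klf5 (17 against 2.59 CPM, -2.72 ± 0.24). Myo5b, a motor of apical traffic, was among the 3 higher in RFP+ cells (1.58 ± 0.32, adjusted p = 7.85e-06 in edgeR). Of 13 mesenchymal genes 10 were higher in RFP+ cells, led by Cdh11 (42.4 against 228 CPM, 2.42 ± 0.14), Foxc1 (2.25 ± 0.19) and the Cdh1 repressor Snai1 (2.15 ± 0.22). The 3 higher in GFP+ cells were Prrx1 (-1.10 ± 0.13), Vim (-0.74 ± 0.07) and Snai2 (-0.63 ± 0.11).

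**Figure D2:**
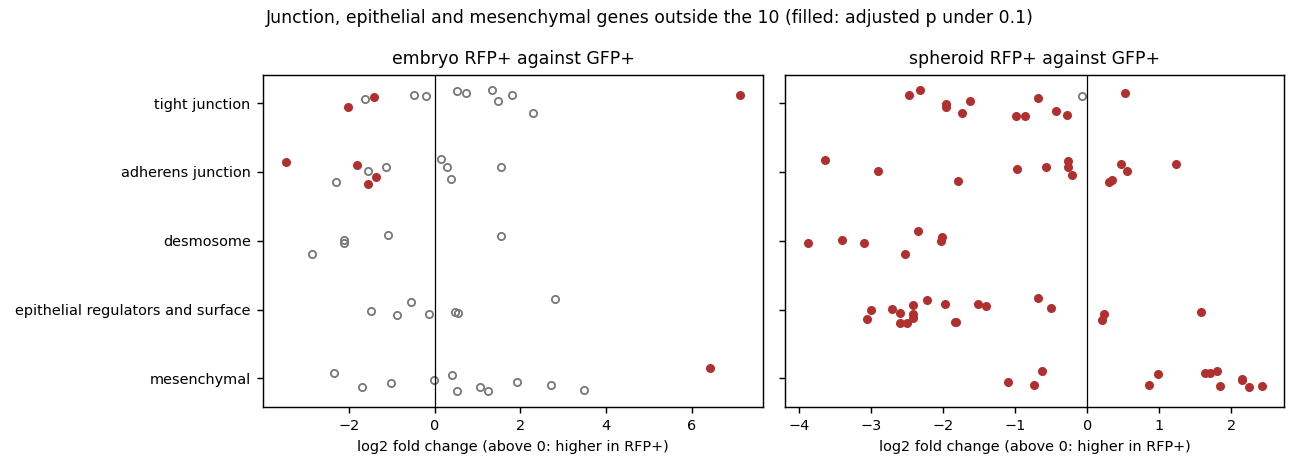
Log2 fold changes, RFP+ over GFP+, of the tested genes of the junction, epithelial and mesenchymal lists in the embryo and in spheroids. Each point is 1 gene, and values below 0 are higher in GFP+ cells. In spheroids the desmosome genes all lie below 0, whereas 10 of 13 mesenchymal genes lie above it.

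In vivo, of the 80 genes 35 passed the filter. RFP+ cells were higher for 1 (2.86%, against 6.21% of all genes tested) and GFP+ cells for 6 (17.1%, against 3.88%). The gene higher in RFP+ cells was Cldn1, a sealing claudin, with no read in GFP+ libraries and 7.43 to 18.2 CPM in RFP+ libraries (adjusted p = 0.0093 in edgeR). It passed the filter only through RFP+ cells, where it is high, so it had to differ. Cdh2 was higher in GFP+ cells, at 198 to 377 CPM against 8.88 to 53.3 CPM (log2 fold change -3.46 ± 0.61, adjusted p = 0.00422). Also higher in GFP+ cells were Cldn12 (-2.03 ± 0.56), the actin linker Vcl (-1.80 ± 0.36), the catenin Ctnnd1 (-1.55 ± 0.40) and the junction molecule F11r (-1.42 ± 0.45). Without well H11 RFP+ cells were higher for 10 genes of the list and GFP+ cells for 2, and without G11 for 0 and 3. DESeq2, which tested 58 of the 80, called 16 with RFP+ cells on top and 7 with GFP+ cells on top, against 1936 of all 10967 genes in either direction. In each of these fits a gene without a read in GFP+ libraries could be called only with RFP+ cells on top. Nothing is therefore read from the counts with RFP+ cells on top. F11r kept its call in 7 of 14 alternatives and Cldn1 in 11, being untested in the other 3. Cldn12 lost its call without any 1 of the 4 RFP+ wells (adjusted p up to 0.123), and Ctnnd1 without F12 or H11.

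None of the 5 desmosome genes and none of the 7 epithelial regulators tested in the embryo passed the threshold in edgeR. At an unadjusted p under 0.05 there was 1 gene in each list. DESeq2 called 1 of 7 desmosome genes and 7 of 18 epithelial regulators, all higher in RFP+ cells, against 1936 of all 10967 genes in either direction. Only 6 of the 11 desmosome genes and 10 of the 30 epithelial regulators listed had reads in embryonic GFP+ libraries. The others could be called only with RFP+ cells on top, so nothing is read from these DESeq2 counts. Of 12 mesenchymal genes 1 was called, Cdh11 (0 to 7.13 CPM in GFP+ and 129.96 to 207 CPM in RFP+ libraries, 6.42 ± 1.25, adjusted p = 0.00832 in edgeR). No GFP+ library reached the level that the filter asks for. Like Cldn1, Cdh11 passed the filter only through RFP+ cells, where it is high, so nothing is read from its call.

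The difference between the embryonic and the spheroid effect was tested for the listed genes that are no member. Of 44 tested in both, 4 passed an adjusted p of 0.1, against 421 of all 8170 genes. Cdh2 differed most (-4.69 ± 0.62, embryo minus spheroid, adjusted p = 0.0181 over the genes fitted by edgeR), being higher in GFP+ cells of the embryo and higher in RFP+ cells of the spheroid. Pdgfra, a receptor of mesenchyme and cardiac progenitors (-3.34 ± 0.68, adjusted p = 0.0527), Cldn12 (-2.55 ± 0.57, adjusted p = 0.0685) and Vcl (-1.59 ± 0.37, adjusted p = 0.0768) followed. For the members themselves this difference was not tested.

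Between spheroid and embryo, the other junction and epithelial genes were called as follows. In GFP+ cells 41 of 66 tested (62.1%, against 48.1% of all genes) were higher in spheroids and 10 (15.2%, against 20.2%) lower, and these included 21 of 26 epithelial regulators and 13 of 17 tight junction genes on the higher side. Of the 41, 26 had no read in any embryonic GFP+ library and passed the filter only through spheroid cells, where they are high, so they had to differ. Crb3, Ap1m2, St14 and Grhl3 were among these. Cdh2 (-3.48 ± 0.20) and Cldn12 (-3.07 ± 0.29) were lower in spheroids. In RFP+ cells 6 of 55 (10.9%, against 22.3% of all genes) were higher in spheroids and 20 (36.4%, against 19.8%) lower. The lower ones included the claudins Cldn9 (-4.66 ± 0.60), Cldn5 (-3.86 ± 0.79) and Cldn10 (-3.36 ± 0.64) and the adhesion genes Cdh3 (-3.56 ± 0.70) and Nectin2 (-3.00 ± 0.23), and the higher ones included Myo5b (2.71 ± 0.72). The adjusted p in edgeR was at most 0.00263 for the genes given with a fold change here.

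Markers of other cell types moved with the spheroid difference. The 12 pluripotency genes summed to 129 to 1760 CPM (median 306) in GFP+ and to 14.9 to 614 CPM (median 62.3) in RFP+ libraries, and 7 of 9 tested were higher in GFP+ cells. Dppa5a led this list, with a mean of 228 CPM against 22.3 CPM. Surface ectoderm markers summed to 22.1 to 143 CPM in GFP+ and 2.98 to 38.9 CPM in RFP+ libraries, mostly from Grhl3, which is also in the epithelial list, with Krt14 at 0 in GFP+ cells. Trophoblast markers summed to 37.8 to 173 and 4.81 to 172 CPM, led by Hand1, which is also a gene of heart mesoderm, with Tpbpa and Prl3d1 at 0 in both. Visceral endoderm markers summed to 51.0 to 325 and 2.59 to 138 CPM, led by Rhox5 in GFP+ and by Spink1 in RFP+ cells. Gut endoderm markers moved the other way, with 10.6 to 412 CPM (median 42.0) in GFP+ and 46.6 to 901 CPM (median 197) in RFP+ libraries, led by Cer1 and Trh. Neural, mesothelial and cardiomyocyte lists had medians of 68.8, 31.8 and 66.2 CPM in GFP+ and 78.1, 79.5 and 64.1 CPM in RFP+ libraries. Their part in the levels of the members was not tested.

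Within a population, the variation from well to well is not the difference that chose the genes, and it was used to ask which members moved together. Of the 45 member pairs, 16 were positively correlated in GFP+ spheroid wells (n = 37) and 34 in RFP+ spheroid wells (n = 39) at a Benjamini-Hochberg adjusted permutation p under 0.1 over the 90 correlations, and none was negative. By Spearman's rho as well, 11 and 30 passed. The median Pearson r over the pairs was 0.245 and 0.412, and the median over all pairs of 9420 genes was 0.002 in both populations. The wells may share culture and plate, and their common sources were not given in the labels. In RFP+ wells the median of every member was higher in plate column 1 than in column 6. Krt8, for example, had 175 and 84.7 CPM there, and Cldn6 had 63.3 and 30.3 CPM. The part of plate column in these correlations and in those with marker lists below was not tested.

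Krt8 and Krt18 were the most tightly coupled pair. Pearson's r of log2(CPM + 1) was 0.882 in GFP+ and 0.930 in RFP+ wells, with rho of 0.807 and 0.917 (adjusted permutation p = 0.00018 for each r and 0.000225 for each rho, the smallest that the permutations can give being 1e-05 before adjustment). Without the 2 wells farthest from the median r was 0.851 and 0.898. Cldn4 followed the keratin pair, with r to Krt8 of 0.678 and 0.709 (rho 0.623 and 0.675) and r to Krt18 of 0.677 and 0.708 (rho 0.626 and 0.692), each with an adjusted permutation p of at most 0.0006. The neighbouring genes Cldn3 and Cldn4 had r of 0.415 (rho 0.482, adjusted permutation p = 0.028) and 0.519 (rho 0.531, adjusted permutation p = 0.00372).

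Other pairs were called in RFP+ wells and not in GFP+ wells. Cldn4 and Cldn7 had r of 0.702 in RFP+ and 0.087 in GFP+ wells, and Epcam and Cldn6 had r of 0.612 and 0.035. Cdh1 was called with 4 other members in RFP+ wells and with none in GFP+ wells, whereas Krt8 was called with all 9 and with 6. Whether the correlations differ between populations was not tested.

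**Figure D3:**
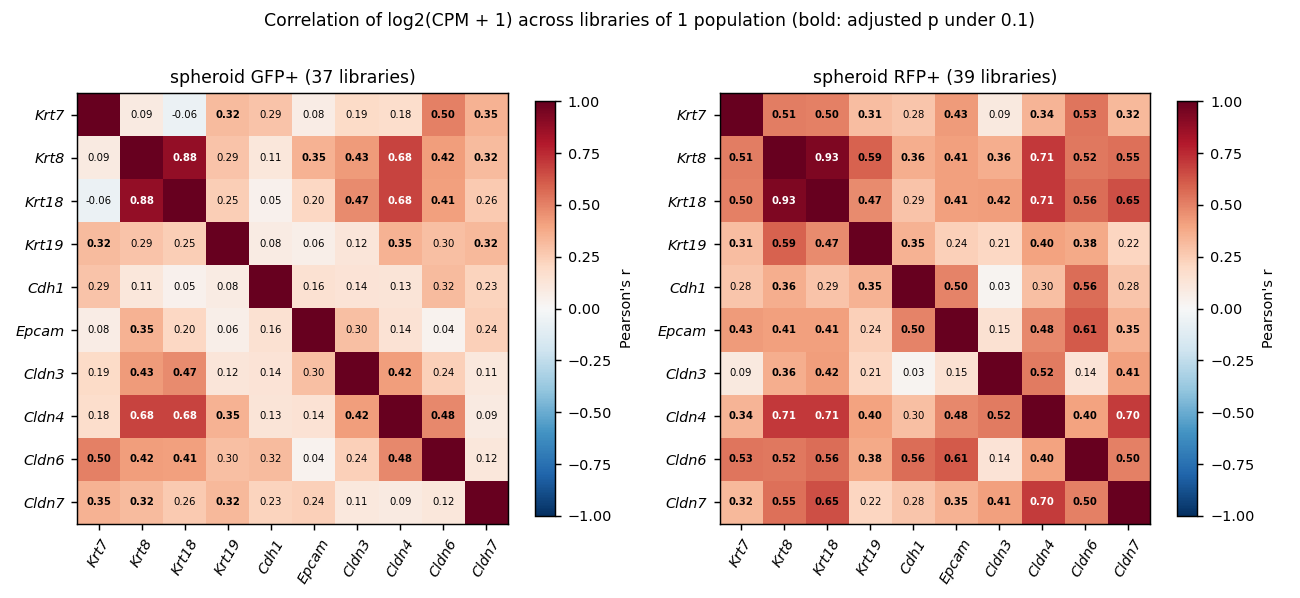
Pearson correlations of log2(CPM + 1) between the members across 37 GFP+ and 39 RFP+ spheroid libraries, by colour. The Krt8 and Krt18 cell is the highest in both panels (0.882 and 0.930), and Cldn4 joins that pair in both.

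Marker lists were correlated with the members in the same wells, 220 correlations in all. In RFP+ wells the mean level of the 14 gut endoderm markers rose with Cldn6 (r = 0.697, rho = 0.752, adjusted permutation p = 0.0022 for both), Krt7 (r = 0.625, rho = 0.607, adjusted permutation p = 0.0033 for r), Cdh1 (r = 0.570, rho = 0.589, adjusted permutation p = 0.011 for r) and Epcam (r = 0.553, rho = 0.546, adjusted permutation p = 0.0121 for r). Without the 2 wells farthest from the median these were 0.673, 0.542, 0.662 and 0.455. Krt7 also rose by rank with the number of counted reads in these wells, and the part of depth in its correlations was not tested. The remaining members, Krt8, Krt18 and Cldn4 among them, were not called with this list. In GFP+ wells no member was called with it, the r of Cldn6 being 0.382 (adjusted permutation p = 0.184).

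The visceral endoderm list was called with Krt7 (r = 0.529, rho = 0.500, adjusted permutation p = 0.0238), Cldn6 (r = 0.482), Krt8 (r = 0.472) and Krt18 (r = 0.444) in RFP+ wells, and the last 3 did not pass by rho. In GFP+ wells 3 correlations were called, each with an adjusted permutation p of 0.0662. They were Cldn6 with visceral endoderm (r = 0.475, rho = 0.297), Cldn4 with mesothelium (r = -0.469, rho = -0.485) and Cdh1 with the mesenchymal list (r = -0.486, rho = -0.339). Only the Cldn4 correlation also passed by rho, and that of Cdh1 was -0.254 without the 2 wells farthest from the median.

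**Figure D4:**
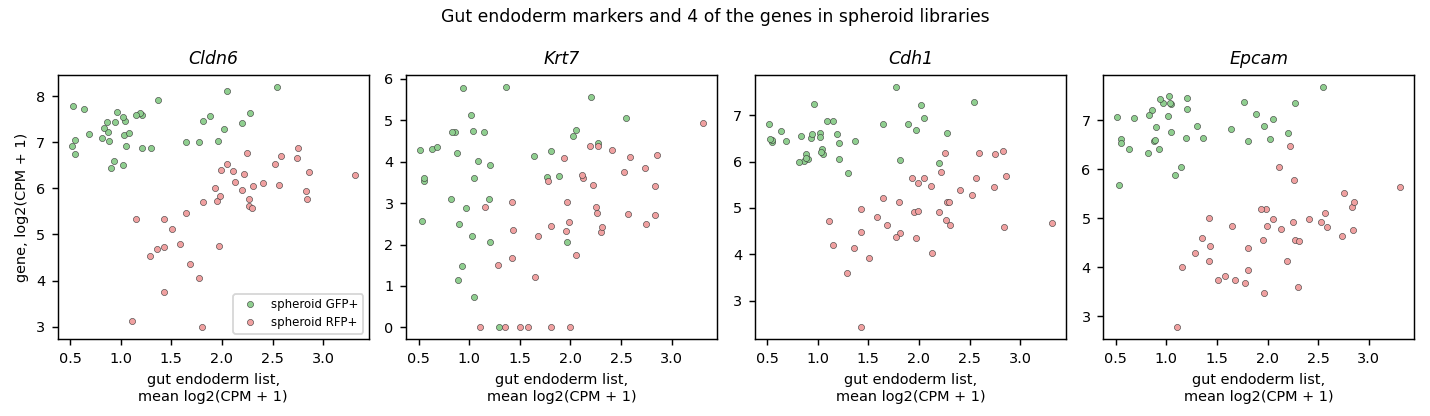
Level of Cldn6, Krt7, Cdh1 and Epcam, as log2(CPM + 1), against the mean log2(CPM + 1) of the gut endoderm markers in the spheroid libraries. Both populations are plotted, with 39 RFP+ and 37 GFP+ libraries in different colours. Each point is 1 library. Over the RFP+ libraries alone r ranges from 0.553 (Epcam) to 0.697 (Cldn6), and in GFP+ libraries no member was called with these markers.

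Among 9419 other genes with a mean of at least 5 CPM in both spheroid populations, those whose well-to-well pattern was most like that of Krt8 were Krt18 (mean of the 2 within-population r 0.906), Cldn4 (0.694), Sqstm1 (0.630), Jup (0.614) and Pmm1 (0.606). For Epcam they were C1qbp (0.646), Iscu (0.597), 0610012G03Rik (0.571), Nenf (0.549) and Rbm17 (0.533), none of them a junction gene of the lists. For Cldn6 they were Ctsd (0.533), Krt7 (0.517), Iqgap1 (0.511), Car4 (0.503) and Perp (0.503). These values rank genes over 37 and 39 wells and carry no test.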

How the data were processed

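RNA of 10 sorted cells per well was converted to cDNA by template switching, amplified by PCR without molecular identifiers, cut with Tn5 and sequenced. Per the labels and the submitters' processing notes, reads were trimmed with Trimmomatic 0.36, aligned to mm10 with HISAT2 2.0.4 and assigned to genes with featureCounts 1.5.2. The strand setting and annotation release are not given in the sources used here. The authors deposited 1 table of raw read counts per gene for 93 wells, in which 0 columns belonged to no sample.

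Wells were grouped by their titles. A spheroid GFP+ well with 6288 counts was left out (minimum 100000). In 7 spheroid RFP+ pairs of plate columns 3 and 4 the wells of 1 row differed by less than the sampling noise (median squared difference over Poisson variance 0.567 to 0.751, against 1.15 to 4.83 for 1028 other pairs), and each pair was summed and counted as 1 sample. This left 85 libraries.

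Levels are counts per 1000000 counted reads (CPM), and per kb they use the longest principal GENCODE M21 transcript. Bounds use a floor of 3 counts per library, averaged over the group. Floors cover counting error only. Fold changes come from edgeR 4.0.16 (R 4.3.3; TMM, filterByExpr with a minimum count of 10, quasi-likelihood F-test, Benjamini-Hochberg over all genes tested, called under 0.1), in the 2 groups compared. Standard errors are the log2 fold change over the root of F. The difference between embryo and spheroid effects was tested with 7 degrees of freedom. Correlations used log2(CPM + 1) within a population and 100000 two-sided permutations (numpy 2.4.6, scipy 1.17.1). The fits and correlations were tested on simulated data.

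The members and all gene lists were chosen with earlier results of these data known, and the E-box and grainyhead-like letters were among 6 motifs searched. Named genes are the members, up to 3 called genes with the largest change per list, direction and comparison, the leading genes of marker lists, and the 5 genes most like Krt8, Epcam and Cldn6. Alternatives were DESeq2 1.42.0, its size factors, total counts, no filter, an adjusted p under 0.05, a joint fit, the low well kept, paired wells kept apart, each embryonic library left out and, for correlations, TMM-scaled CPM, log2(CPM + 5) and libraries above 1000000 reads.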

Additional observations from a re-analysis of the deposited data

Results flagged for a closer look

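Krt18 in embryonic RFP+ cells had a library that lay far from the others, with 329 CPM in well F12 against 153 to 170.1 CPM in the other 3 (gap over range 0.905, critical value 0.829). About 1 group in 20 passes this by chance.

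Cldn3 moved in opposite directions in the embryo and in the spheroid, with every embryonic RFP+ library above every GFP+ one and every spheroid GFP+ library (mean 41.5 CPM) above every RFP+ one (mean 2.33 CPM). This difference was not tested, and the lowest embryonic RFP+ library held a single read.

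The RFP+ over GFP+ log2 fold change differed between embryo and spheroid by -4.69 ± 0.62 for Cdh2 (adjusted p = 0.0181 from the edgeR fits), being -3.46 in the embryo and 1.23 in the spheroid. The same difference was -3.34 ± 0.68 for Pdgfra (adjusted p = 0.0527), -2.55 ± 0.57 for Cldn12 (adjusted p = 0.0685) and -1.59 ± 0.37 for Vcl (adjusted p = 0.0768). The embryonic fold change of Pdgfra alone did not pass the threshold (-1.70 ± 0.67, adjusted p = 0.189), and Vcl was higher in GFP+ cells in both.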

How the results depend on the processing

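No paired analysis was possible because the replicate numbers of the embryonic groups are in accession order and the wells share no animal or culture in the labels. Of 319 alternative fold changes of the members, 311 stayed within their spread. The 7 that moved were those of the members at 0 in embryonic GFP+ cells under DESeq2, 6.84 to 11.3 in spheroid against embryonic GFP+ cells. Epcam in spheroid against embryonic RFP+ cells reversed without well F12 (0.00304) and ranged from there to -1.61 (without H11) with 1 library left out. All 50 alternative levels stayed within their spread, as did the calls of 1131 of 1160 alternative correlations, with 21 lost and 8 gained. Genes called in the embryo numbered 858 in edgeR, 1936 by DESeq2, 2000 without a filter and 6980 in the joint fit over all groups, and 613 to 1044 with 1 library left out. In the spheroid they numbered 7651, and 12775 without a filter. Genes whose effect differed between embryo and spheroid numbered 421, and 119 without a filter, 6291 in the joint fit and 243 to 628 with 1 library left out, the lowest without G11. The causes were not tested. In the embryo 1 member passed the threshold, and 0 at an adjusted p under 0.05 or without B12, G11 or G12, 5 without H11, 8 by DESeq2, 7 without a filter and 9 in the joint fit. Over all genes tested, edgeR called 858 of 8503 and DESeq2 1936 of 10967. With 1 library left out, 613 to 1044 genes were called, of 8106 to 9022 tested. The number of all genes at an adjusted p under 0.05 is not given here. Without a filter 2000 of 15111 were called, and in the joint fit 6980 of 12619. Nothing is read from the member counts. The 80 other junction and epithelial genes gave 1 call with RFP+ and 6 with GFP+ cells on top in the embryo, but 21 with RFP+ cells on top without a filter, 35 and 14 in the joint fit, 2 and 3 without F12 and 2 and 8 without C12. Genes without a read in embryonic GFP+ cells could be called only with RFP+ cells on top, so nothing is read from the counts on that side. Called in all 14 alternatives to the embryo fit were Cdh2, Vcl and Cdh11. Of these, Cdh11 passed the filter of the main fit only through RFP+ cells, so nothing is read from its calls. The members at 0 in embryonic GFP+ cells are limited by the floor, 2.61 CPM on average.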
